A study of Rattus norvegicus with 6 samples.

Results

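Genes of glycolysis, the pentose phosphate pathway and the hypoxia response were followed in INS-1 cells, which derive from a rat insulinoma, still release insulin and are widely used in place of pancreatic beta cells. The set comprised 32 genes listed by symbol, of which 31 had a row among the 35362 gene rows of the table (Pgd, the phosphogluconate dehydrogenase gene, was not analysed here). All cells overexpressed Flag-tagged menin from a pMX-puro retrovirus, with the S487D mutant in one group (3 libraries) and the S487A mutant in the other (3 libraries). Menin, which Men1 encodes, acts in the nucleus as a scaffold for regulators of transcription. In S487D the serine is replaced by aspartate, an acidic residue often used to imitate phosphorylation, and in S487A by alanine, which cannot be phosphorylated. The study concerned phosphorylation of menin downstream of the incretin hormone GLP-1. Cells of both groups were at passages 75 to 80, and each library held RNA of a bulk culture, in which fewer cells with an mRNA and less of it per cell cannot be told apart. Cells with wild-type menin or an empty vector were not analysed here, so each direction is S487D relative to S487A. Nothing in the labels separates the 3 libraries of a group by culture or by transduction. The p-values therefore cover only the scatter among these samples, possibly technical, and the mutant cannot be told apart from the cell population that carries it.

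Glycolysis splits glucose into pyruvate, first spending ATP on sugar phosphates and then recovering ATP and NADH in its pay-off steps. Beta cells use the pathway as a glucose sensor: the glucose carrier encoded by Slc2a2 lets uptake follow blood glucose, pyruvate goes mainly to mitochondria, and the genes for high-affinity hexokinase (Hk1), lactate dehydrogenase A (Ldha) and the lactate carrier MCT1 (Slc16a1) are kept low and are known as beta cell disallowed genes. The pentose phosphate pathway draws sugar phosphates off to make NADPH and ribose. HIF1A, whose protein is marked for destruction by the oxygen-dependent prolyl hydroxylases EGLN1 and EGLN3, induces many glycolytic genes in low oxygen.

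Reads assigned to listed genes numbered between 9444801 and 10867549 per library, and a gene of 1 kb with 3 reads, taken as the floor of detection, stood at 0.276 to 0.318 RPKM (reads scaled to gene length and to the reads assigned in the library). Men1 was read at 113, 103 and 119 RPKM in S487D libraries, against 71.2, 76.7 and 75.0 RPKM in S487A libraries (the labels do not say from which species the transgene comes). The level of Men1 mRNA thus differed between the groups along with the mutant. The 40 genes around Men1 that entered the test described below had a median log2 change of 0.22. All 8 beta cell markers examined were present, with a summed level of 17565 to 18744 RPKM in S487D and 5262 to 5810 RPKM in S487A, most of it Ins1. Of markers of other cells, Cpa1 and Cela1 (acinar), Col3a1 and Pdgfrb (fibroblast), Cdh5 (endothelial), and Ptprc and Itgam (macrophage) were listed at 0 in every library. The summed level was 80.8 to 84.7 RPKM in S487D and 208 to 226 RPKM in S487A for 4 duct markers, nearly all Krt7, and 95.5 to 103 RPKM in S487D and 65.1 to 68.6 RPKM in S487A for 5 fibroblast markers, nearly all Thy1. Their part in the results below was not tested. The acinar, endothelial and macrophage lists each summed to at most 1.48 RPKM in any S487D library and 1.07 RPKM in any S487A library.

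S487D cells had modestly more mRNA of the glycolytic enzyme genes Aldoa, Gapdh, Pgk1, Pgam1 and Eno1 and of the oxygen-sensing hydroxylase gene Egln1, and less of Taldo1, Pfkm, Pkm and Hif1a. After quantile normalization, or without S487D replicate 1, the rises of Gapdh, Pgam1 and Eno1 no longer passed the test. The fall of Pkm did not pass in 5 of 15 alternative fits. Pfkm fell among neighbouring genes of which 35 of 40 fell too. Of the 31 genes, 23 reached 1 RPKM in at least 3 libraries and were tested (limma on log2(RPKM + 1), Benjamini-Hochberg adjustment over all 12527 genes tested, two-sided), and "rose" and "fell" below mean an adjusted p under 0.05 in that test. Folds and log2 changes were taken after adding 1 to each RPKM, so they are too small for genes near 1 RPKM. Of the 23 tested, 9 rose against a background of 20.1% of all genes tested, and 5 fell against 24.3%, so 14 changed where 44.4% of all genes did. The count includes Egln3, which entered the test through its S487D libraries alone. On the RPKM + 1 scale no change reached 2-fold, and the largest was the 1.47-fold fall of Taldo1, although Egln3 changed more with smaller pseudocounts, with voom and after median centring. Values of the groups did not overlap in 16 of 23 genes, against 54.6% of all genes tested. The 16 include Egln3, whose values could not overlap once its S487D libraries alone had brought it into the test. The median log2 change was 0.10, beside -0.01 over all genes tested. It was 0.0615 without S487A replicate 1, 0.0383 without S487A replicate 2 and 0.0413 without S487D replicate 2. The split of 9 rising and 5 falling genes was 6 and 7 after quantile normalization and 11 and 4 after median centring of the libraries. The number rising was 3 without S487D replicate 1 and 5 without S487D replicate 3, in fits where 4603 and 4851 genes passed, against 5564 with all libraries. The set as a whole took 0.667, 0.654 and 0.662% of assigned reads in S487D libraries and 0.627, 0.649 and 0.668% in S487A libraries, so its total overlapped between the groups.

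**Figure D1:**
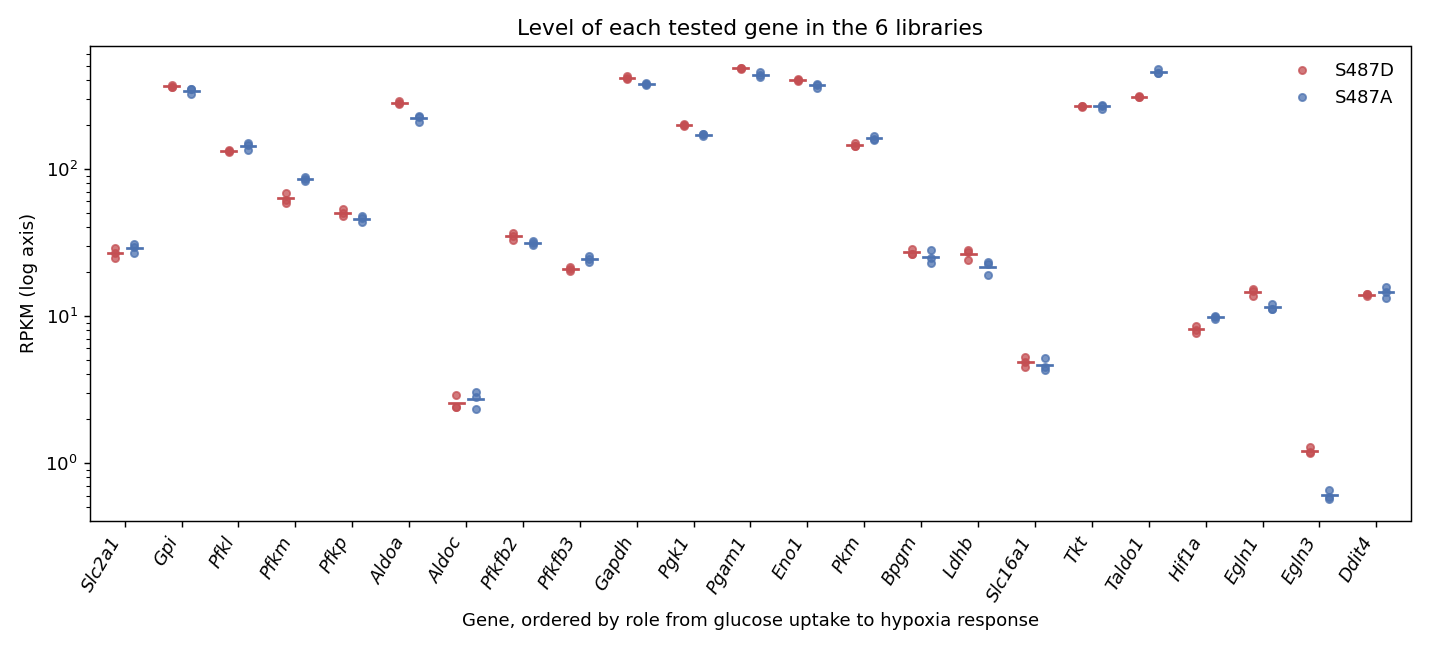
RPKM (log axis) of the 23 tested genes in each library, S487D in red and S487A in blue, with points for libraries and bars for group means. Levels span from about 1 RPKM (Egln3) to over 400 RPKM (Pgam1), and most gaps between groups are small beside the differences between genes.

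**Figure D2:**
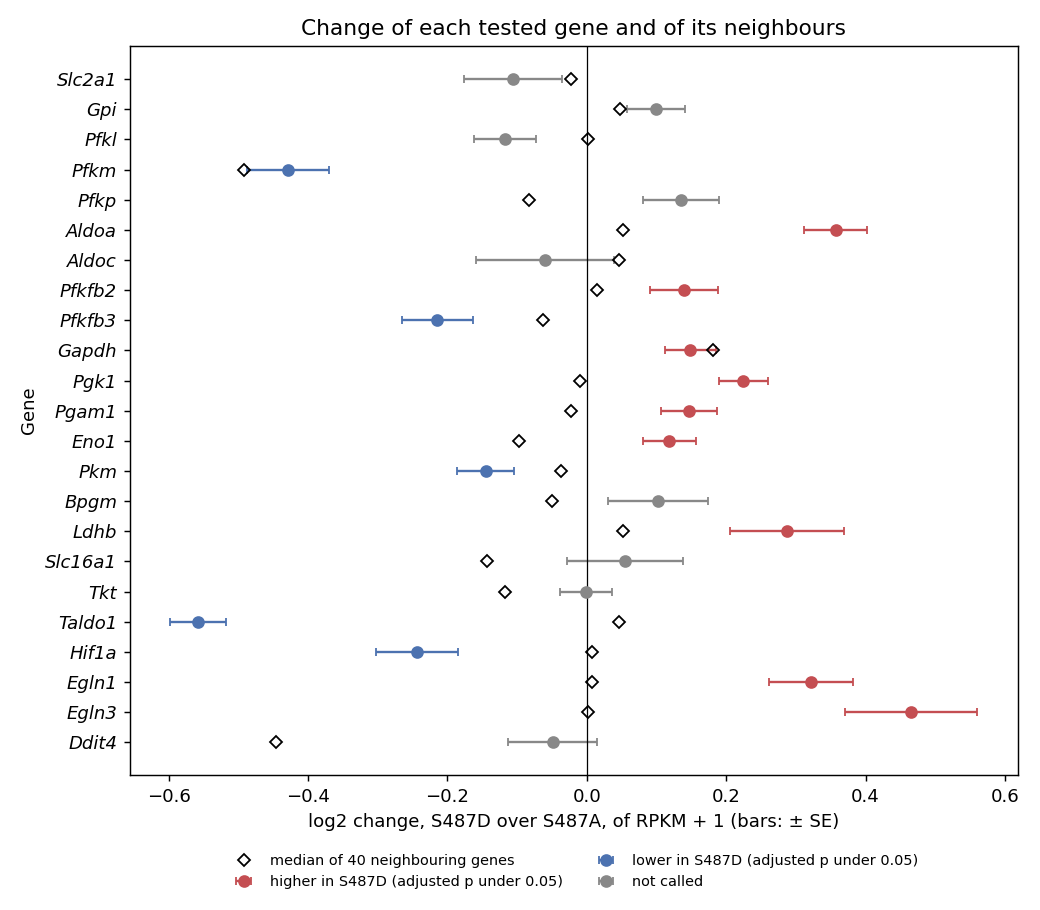
Log2 change of RPKM + 1, S487D over S487A, for each tested gene (filled circles, bars ± SE) and the median change of its 40 neighbouring tested genes (open diamonds). Taldo1 lies far below its neighbours, while Pfkm and Gapdh lie close to theirs.

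Of the glucose carrier genes in the set, 1 was tested and it missed the threshold. Slc2a1, which encodes the widespread carrier GLUT1, was read at 26.9, 24.8 and 29.1 RPKM in S487D, against 26.7, 30.9 and 29.5 RPKM in S487A (log2 change -0.11, limma adjusted p = 0.251), and the groups overlapped. Slc2a3, the neuronal-type carrier gene, had 19 reads in all 3 S487D libraries together and 17 in the S487A libraries and was not tested. The beta cell carrier gene Slc2a2, from outside the set, rose to 171, 164 and 166 RPKM in S487D, against 138, 137 and 137 RPKM in S487A (1.21-fold, limma adjusted p = 2.12e-04). Slc2a2 lies on chromosome 2 among genes that were mostly lower, since the 40 tested genes around it had a median log2 change of -0.68.

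Hexokinases of high glucose affinity were at the edge of detection in both groups. Hk1, the disallowed hexokinase, had a single read in S487D libraries and 0 reads in S487A libraries, and Hk2 had 3 reads in S487D and 8 in S487A, so neither reached more than 3 reads in any library and no difference could be read at this depth. Hk1 was 1 of 5 consecutive rows on chromosome 20 that held 2 reads in all 6 libraries together, between rows with 808 and 2194 reads. Gpi, glucose phosphate isomerase, was abundant at 360.2, 362 and 369 RPKM in S487D and 322, 351 and 346 RPKM in S487A. Its groups did not overlap, but it missed the threshold (log2 change 0.10, limma adjusted p = 0.0821, which was 0.0258 with voom, 0.0198 after median centring and 0.51 after quantile normalization).

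Of the phosphofructokinase subunits, which form the tetramer that commits sugar to glycolysis, Pfkm fell and Pfkl and Pfkp missed the threshold. Pfkm (chromosome 7, 139702066 to 139722132 in rn6), the muscle-type subunit gene, had 61.5, 58.6 and 68.7 RPKM in S487D, against 82.1, 84.6 and 87.9 RPKM in S487A. All 3 S487D values lay below the S487A values, and Pfkm fell 1.35-fold (log2 change -0.43, SE 0.059, limma adjusted p = 3.35e-04). It did so among neighbours that fell alike: of the 40 tested genes around it 35 fell and 1 rose, with a median log2 change of -0.49. Pfkl, the liver-type subunit, held 132, 130.4 and 134 RPKM in S487D and 135, 149 and 145.5 RPKM in S487A, just short of the threshold (log2 change -0.12, limma adjusted p = 0.0550, below 0.05 with voom on recovered reads, after quantile normalization, with a filter at RPKM 5 and without S487A replicate 1). Pfkp, the platelet-type subunit, held 53.0, 47.4 and 50.4 RPKM in S487D and 43.1, 46.4 and 47.6 RPKM in S487A, with overlapping groups (log2 change 0.13, limma adjusted p = 0.0715, below 0.05 with voom, after median centring and without S487D replicate 2).

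Within the summed RPKM of these subunits, Pfkm made up 25.0, 24.8 and 27.2% in S487D libraries, against 31.5, 30.2 and 31.3% in S487A libraries. Pfkp made up 21.6, 20.05 and 19.9% in S487D and 16.6, 16.5 and 16.9% in S487A. A share can also rise because another subunit falls, and the RPKM of Pfkp itself overlapped between groups. Pfkl stayed the main subunit, at 53.8 ± 1.2% in S487D and 52.3 ± 0.83% in S487A (SD, n = 3 each), with overlapping values. The Pfkm and Pfkp shares did not overlap between groups (two-sided exact permutation p = 0.1, which is the lowest that 3 libraries against 3 allow, or 0.15 adjusted over 6 enzyme groups). Those groups were phosphofructokinase, aldolase, PFKFB, EGLN, the lactate carriers and the glucose carriers, and 3 more groups were left out because 1 gene had no more than 3 reads in any library.

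Of the PFKFB enzymes, which make and remove the sugar bisphosphate that activates phosphofructokinase, one rose and the other fell. Pfkfb2 was read at 36.3, 32.9 and 34.7 RPKM in S487D, against 31.5, 30.4 and 32.2 RPKM in S487A (1.10-fold higher, limma adjusted p = 0.0436). Pfkfb3, the inducible isoenzyme with high kinase activity, was read at 20.3, 21.4 and 20.8 RPKM in S487D, against 24.5, 23.1 and 25.5 RPKM in S487A (1.16-fold lower, limma adjusted p = 0.00783). The groups did not overlap for either gene. Pfkfb2 thus took 64.2, 60.6 and 62.5% of the pair's RPKM in S487D and 56.3, 56.9 and 55.7% in S487A (two-sided exact permutation p = 0.1, adjusted 0.15). The rise of Pfkfb2 was lost in 7 of 15 alternatives, among them leaving out any library but S487D replicate 2, with adjusted p from 0.00503 to 0.159 over all 15.

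**Figure D3:**
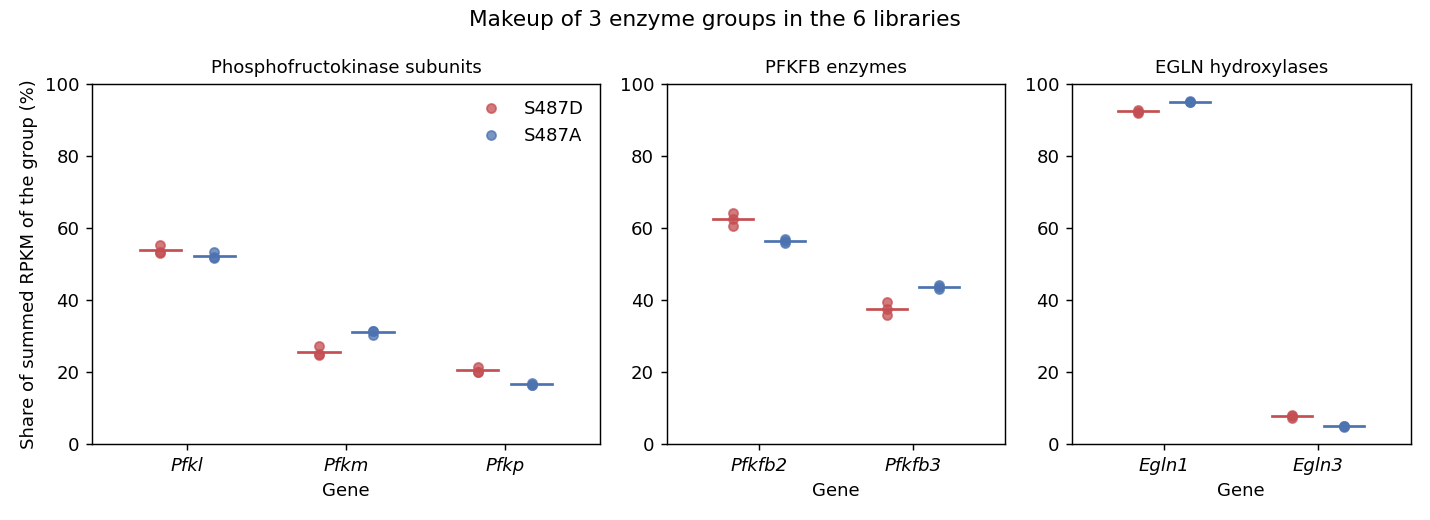
Share of each gene in the summed RPKM of its enzyme group in each library (percent), S487D in red left of S487A in blue, with bars for group means. Pfkm and Pfkfb3 take a smaller share in S487D than in S487A, and Pfkp, Pfkfb2 and Egln3 a larger one, without overlap of the libraries.

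Aldolase A rose while aldolase C did not pass the test. Aldoa, whose enzyme splits the doubly phosphorylated sugar into trioses, lies on chromosome 1 from 198228387 to 198233754 (rn6). It held 289, 279.8 and 278 RPKM in S487D, against 207, 226 and 228 RPKM in S487A, with every S487D library above every S487A library (1.28-fold, log2 change 0.36, SE 0.045, limma adjusted p = 1.86e-04). Its row overlaps an uncharacterised transcript at about 2 RPKM. Aldoc, the brain-type aldolase, was near 1% of the pair, at 2.56 ± 0.28 RPKM in S487D and 2.71 ± 0.35 RPKM in S487A (SD, n = 3 each).

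Tpi1, triosephosphate isomerase, and Eno2, the neuronal enolase, were listed at or near 0 in every library, together with their neighbours. On chromosome 4 from 157264383 to 157331905 (rn6), 7 consecutive rows (Grcc10, Atn1, LOC102553919, Eno2, Lrrc23, Spsb2 and Tpi1) held 4 reads in all 6 libraries together. The rows on either side, Ptpn6 and Usp5, held 2088 and 3219 reads. Tpi1 serves a step that glycolysis cannot skip, so a value of 0 there may be a failed estimate and not an absence of mRNA, which these values cannot tell apart. The stretch was examined after the values were seen.

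**Figure D4:**
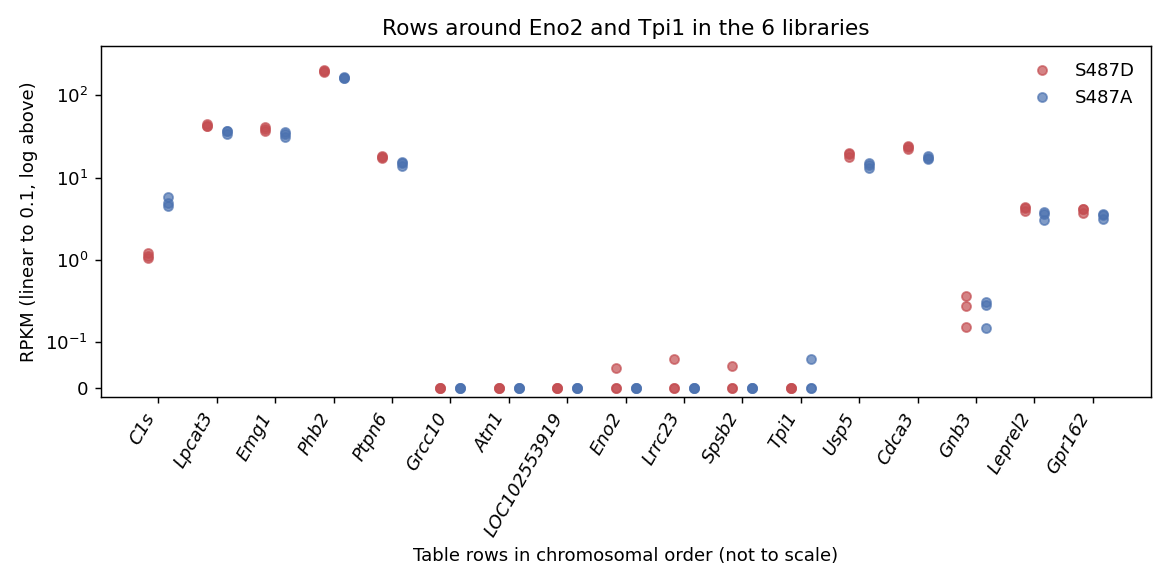
RPKM of consecutive table rows around Eno2 and Tpi1 in each library (linear to 0.1, log above), S487D in red left of S487A in blue. The 7 rows from Grcc10 to Tpi1 lie at or near 0 in both groups, between rows such as Ptpn6 and Usp5 that are read in every library.

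In the pay-off steps, 4 of 6 tested genes rose, Pkm fell and Bpgm missed the threshold. Of all genes tested, 20.1% rose and 24.3% fell. Gapdh, which makes the NADH of glycolysis, was read at 428, 409 and 414 RPKM in S487D, against 376, 369 and 383 RPKM in S487A (1.11-fold, limma adjusted p = 0.00946). Pgk1, the first ATP-yielding kinase, was read at 199.7, 203 and 196 RPKM in S487D, against 172, 168 and 172 RPKM in S487A (1.17-fold, limma adjusted p = 7.27e-04). Pgam1, a phosphoglycerate mutase and the most abundant gene of the set, held 488, 483 and 479 RPKM in S487D, against 419.9, 435 and 455 RPKM in S487A (1.11-fold, limma adjusted p = 0.0151). Eno1, the widespread enolase, held 399.6, 395 and 407 RPKM in S487D, against 357, 371 and 379.9 RPKM in S487A (1.09-fold, limma adjusted p = 0.0312). In each of these 4 genes all S487D libraries lay above all S487A libraries. Groups did not overlap, in either direction, in 54.6% of all genes tested. Of the 4 genes, only Pgk1 kept its call in all 15 alternatives. Calls of Gapdh, Pgam1 and Eno1 were lost after quantile normalization (log2 changes 0.06, 0.05 and 0.04) and without S487D replicate 1, within adjusted p ranges over 15 alternatives of 0.00118 to 0.167, 8.69e-04 to 0.203 and 0.00549 to 0.475, and the Pgam1 and Eno1 calls also under the replicate block. The Eno1 call was lost in 9 of 15 alternatives, including no filter on low genes, no trend and leaving out any library but S487A replicate 3.

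Pkm, the pyruvate kinase gene of most tissues, moved opposite to these, at 149, 143 and 144 RPKM in S487D, against 156, 159 and 168 RPKM in S487A (1.11-fold lower, limma adjusted p = 0.0173, and at most 0.1002 over 15 alternatives, 5 of which lost the call). Pklr, the liver-type pyruvate kinase gene from outside the set, also fell, to 101, 107 and 110.2 RPKM in S487D, against 129.9, 130.2 and 132 RPKM in S487A (1.23-fold, limma adjusted p = 3.35e-04). Both pyruvate kinase genes were thus lower in S487D, with no overlap of the groups. Bpgm, which makes the bisphosphoglycerate of red cells, held 27.1 ± 1.0 RPKM in S487D and 25.2 ± 2.7 RPKM in S487A (SD, n = 3 each), with a log2 change of 0.10 (limma adjusted p = 0.274, and 0.0406 without S487A replicate 3, where the log2 change was 0.18). The 40 neighbours of Gapdh had a median log2 change of 0.18, close to its own 0.15, whereas the neighbours of Pgk1, Pgam1 and Eno1 stood at -0.01, -0.02 and -0.10. Gapdh, Eno1, Pkm, Pgam1, Aldoa and Pgk1 have 81, 31, 19, 13, 9 and 8 pseudogenes named after them in the RefSeq table of a later rat assembly (GRCr8, counted by name only). The values of these genes are thus uncertain where the counting could split reads among copies.

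The promoters of the pay-off genes that rose, and of Taldo1, which fell, are shown because HIF1A is known to bind many glycolytic promoters at a short core. The core was searched as ACGTG or GCGTG on either strand (printed on the gene's strand, where the other strand's match reads CACGT or CACGC). Each sequence is the 250 bases before the start in RefSeq (GRCr8), 5′ to 3′ on the gene's strand, with cores in capitals. Pgk1 is not among the promoters, and Eno1 has a pair of starts.
Gapdh, chr4:159652468-159652717, minus strand: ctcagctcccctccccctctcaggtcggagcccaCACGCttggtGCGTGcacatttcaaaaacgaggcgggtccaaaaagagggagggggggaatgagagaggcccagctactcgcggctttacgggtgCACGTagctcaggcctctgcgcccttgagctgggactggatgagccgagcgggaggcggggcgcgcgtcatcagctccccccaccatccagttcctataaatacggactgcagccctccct
Pgam1, chr1:250672902-250673151, plus strand: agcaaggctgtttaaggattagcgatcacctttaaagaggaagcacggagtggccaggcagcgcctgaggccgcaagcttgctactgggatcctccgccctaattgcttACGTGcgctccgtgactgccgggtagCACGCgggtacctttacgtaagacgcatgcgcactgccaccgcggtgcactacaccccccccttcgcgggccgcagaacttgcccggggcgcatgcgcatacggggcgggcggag
Eno1 first start, chr5:166002617-166002866, plus strand: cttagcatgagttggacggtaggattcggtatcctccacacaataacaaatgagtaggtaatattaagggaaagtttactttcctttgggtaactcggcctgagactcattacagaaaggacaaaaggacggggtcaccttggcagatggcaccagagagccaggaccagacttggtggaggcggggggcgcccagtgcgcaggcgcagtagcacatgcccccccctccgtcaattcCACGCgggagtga
Eno1 second start, chr5:166003111-166003360, plus strand: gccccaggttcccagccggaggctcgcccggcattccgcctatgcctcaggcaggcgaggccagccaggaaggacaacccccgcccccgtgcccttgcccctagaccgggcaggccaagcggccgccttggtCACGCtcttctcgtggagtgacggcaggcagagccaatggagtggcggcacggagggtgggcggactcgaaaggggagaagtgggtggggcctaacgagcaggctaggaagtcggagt
Taldo1, chr1:205922946-205923195, plus strand: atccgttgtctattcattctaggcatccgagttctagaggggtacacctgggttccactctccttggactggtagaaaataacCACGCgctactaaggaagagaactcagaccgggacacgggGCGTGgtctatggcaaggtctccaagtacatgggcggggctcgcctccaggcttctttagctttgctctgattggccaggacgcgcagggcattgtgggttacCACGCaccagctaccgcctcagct
Gapdh and Taldo1 each held 3 cores, Pgam1 held 2 and each Eno1 start held 1. The promoter of Pkm, the pay-off gene that fell, is not printed and held 0 cores. Aldoa, which rose and is not printed either, had starts both with and without a core. Across the set 30 genes matched a promoter by symbol, with 34 starts, of which 20 (58.8%) held at least 1 core, beside 36.7% of all 33469 promoters in the table. The set's promoters were richer in G and C, with a median of 61.2% against 51.2%, and the core itself is rich in them. Cores stood before 6 of 8 genes that rose, 4 of 5 that fell and 6 of 9 that missed the threshold, so their presence did not go with one direction. A match is only these letters in this window and says nothing of binding.

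Of the lactate genes, Ldhb rose and Ldha was all but absent from the table. Ldhb, whose enzyme favours the conversion of lactate to pyruvate, was read at 27.0, 24.1 and 28.0 RPKM in S487D, against 18.8, 23.2 and 22.4 RPKM in S487A (1.22-fold, log2 change 0.29, SE 0.082, limma adjusted p = 0.0181). The lowest S487D library stood just above the highest S487A library, and the call was lost without S487D replicate 1 or 3 and with low genes kept in (adjusted p from 0.00328 to 0.0589 over 15 alternatives). Ldha, a disallowed gene, had 0 reads in S487D libraries and a single read in S487A libraries. Of rows close by, the one before it had 398 reads, Ldhc after it had 5 and Tsg101 had 4417, and 30 pseudogenes are named after it in GRCr8, so whether its reads were assigned elsewhere was not tested. Slc16a1, the third disallowed gene, was low but present at 4.89, 5.22 and 4.46 RPKM in S487D and 4.27, 4.501 and 5.15 RPKM in S487A (log2 change 0.05, limma adjusted p = 0.627), with overlapping groups. Slc16a3, the carrier of lactate-exporting cells, stayed at 0.213 to 0.273 RPKM in S487D and 0.269 to 0.330 RPKM in S487A and was not tested.

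Taldo1 fell and Tkt missed the threshold. Transaldolase, encoded by Taldo1, links the pentose phosphate pathway back to glycolysis, and its gene lies on chromosome 1 from 214375555 to 214385886 (rn6). It was read at 309.5, 315 and 306 RPKM in S487D, against 448, 445 and 478 RPKM in S487A, a wide gap with no overlap (1.47-fold lower, log2 change -0.56, SE 0.040, limma adjusted p = 4.94e-06). Its 40 neighbours had a median log2 change of 0.05, with 10 higher and 6 lower, and it fell in all 15 alternatives, by 0.50 to 0.64 on the log2 scale. Tkt, transketolase, which works beside it, held 265 ± 1.4 RPKM in S487D and 265 ± 8.3 RPKM in S487A (SD, n = 3 each; log2 change -0.00, SE 0.037, limma adjusted p = 0.983, and -0.09 with adjusted p = 0.0476 after quantile normalization). In a list of 12 other pentose phosphate and ribose genes, 9 were tested. Of them 3 rose and 3 fell, where 20.1% and 24.3% of all genes tested did, and their median log2 change was 0.09. Rpia, ribose phosphate isomerase, and Dera, deoxyribose phosphate aldolase, rose 1.15-fold and 1.21-fold. Prps1, which makes the ribose donor of nucleotides, Shpk, sedoheptulokinase, and H6pd, a dehydrogenase of the endoplasmic reticulum, fell 1.14-fold, 1.23-fold and 1.15-fold. The Rpia call was lost without S487D replicate 1 and the H6pd call in 5 alternatives, including both scalings.

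In a list of 34 other genes of glycolysis, gluconeogenesis and hexose handling, 23 were tested. Slc2a2 rose, 8 fell and 14 did neither, beside 20.1% of all genes tested that rose and 24.3% that fell, and the median log2 change was -0.11, beside -0.01 over all genes. Gpd1 and Gpd2, the cytosolic and mitochondrial enzymes of the glycerol phosphate shuttle that carries NADH electrons into mitochondria, both fell. Gpd1 was read at 42.5, 43.4 and 42.1 RPKM in S487D, against 69.9, 75.4 and 75.7 RPKM in S487A (1.71-fold lower, limma adjusted p = 1.15e-06), among neighbours on chromosome 7 with a median log2 change of -0.57. Gpd2 was read at 40.9, 40.1 and 38.1 RPKM in S487D, against 47.8, 50.9 and 49.7 RPKM in S487A (1.24-fold lower, limma adjusted p = 4.73e-04), with neighbours at -0.05.

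In the hypoxia genes, Hif1a fell and Egln1, which encodes an oxygen-sensing hydroxylase, rose. Hif1a was read at 8.50, 8.06 and 7.68 RPKM in S487D, against 9.55, 9.94 and 9.75 RPKM in S487A (1.18-fold lower, log2 change -0.24, SE 0.059, limma adjusted p = 0.00808). The row of Hif1a overlaps that of LOC102550558, and whether they share reads was not tested. Egln1 (chromosome 19, 57660194 to 57701158 in rn6), the main prolyl hydroxylase gene, had 15.3, 13.7 and 14.7 RPKM in S487D, against 11.1, 11.1 and 12.1 RPKM in S487A (log2 change 0.32, SE 0.060, higher in S487D at a limma adjusted p = 0.00205). In GRCr8, 6 pseudogenes are named after Egln1, and whether reads were split among them was not tested. Egln3, a hydroxylase gene that HIF itself induces, on chromosome 6 from 75050329 to 75075795, was read at 1.28, 1.19 and 1.17 RPKM in S487D, against 0.566, 0.588 and 0.656 RPKM in S487A. Hif1a and Egln1 did not overlap between groups, as was the case for 54.6% of all genes tested. The values of Egln3 could not overlap once its S487D libraries alone had brought it into the test. Hif1a and Egln1 kept their calls in all 15 alternatives. Egln3 entered the test only through its S487D libraries, so its call is no support for a rise, and 11 of 15 alternatives tested it (not those without an S487D library or with a minimum of RPKM 5). Egln3 rested on 100 reads in S487D and 53 in S487A, and its 1.38-fold difference on the log2(RPKM + 1) scale (limma adjusted p = 0.00341) was a log2 change of 1.00 with a pseudocount of 0.01. It made up 7.75, 8.02 and 7.36% of the EGLN pair in S487D and 4.86, 5.01 and 5.16% in S487A (two-sided exact permutation p = 0.1, adjusted 0.15).

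Of the other hypoxia genes in the set, neither gave a direction. Ddit4, an inhibitor of mTOR signalling induced by stress and low oxygen, held 14.0, 13.6 and 14.0 RPKM in S487D and 13.2, 15.6 and 14.5 RPKM in S487A (log2 change -0.05, limma adjusted p = 0.564, with the opposite sign after quantile normalization, median centring or leaving out S487A replicate 2). Its neighbours on chromosome 20 had a median log2 change of -0.45, with 31 of 40 lower and 0 higher. Adm, the adrenomedullin gene, had 5 reads in S487D and 1 in S487A, at most 2 in any library, and could not be compared.

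Of 44 symbols listed for other hypoxia response genes, 42 had a row and 32 were tested. There were 9 that rose and 14 that fell, beside shares of 20.1% and 24.3% over all genes tested, and the median log2 change was -0.12. P4ha1, a collagen prolyl hydroxylase subunit, was read at 5.61, 5.86 and 5.21 RPKM in S487D, against 12.6, 12.4 and 12.8 RPKM in S487A (2.07-fold lower, limma adjusted p = 1.20e-06), among chromosome 20 neighbours with a median log2 change of -0.42. Bnip3, a mitophagy receptor, was read at 18.0, 16.9 and 13.3 RPKM in S487D, against 28.5, 28.0 and 29.1 RPKM in S487A (1.74-fold lower, limma adjusted p = 1.11e-04). Epas1, which encodes the related factor HIF2A, fell to 4.46 ± 0.46 RPKM in S487D, against 7.69 ± 0.20 RPKM in S487A (SD, n = 3 each; limma adjusted p = 8.37e-05). Ero1l, an oxidase of the endoplasmic reticulum, and Pdk1, which holds pyruvate back from mitochondria, fell by 0.59 and 0.24 on the log2 scale.

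Other genes of that list rose. Hmox1, heme oxygenase, was read at 12.7, 10.9 and 13.1 RPKM in S487D, against 7.15, 6.19 and 5.97 RPKM in S487A (1.78-fold higher, limma adjusted p = 4.66e-05). Fam162a, a HIF-inducible mitochondrial protein gene, and Arnt2, a partner of HIF proteins, rose 1.34-fold and 1.33-fold. Vegfa, the vascular growth factor gene, was read at 114, 105 and 114 RPKM in S487D, against 101, 99.1 and 99.7 RPKM in S487A (1.11-fold higher, limma adjusted p = 0.0208, and up to 0.117 over 15 alternatives). Classical HIF targets thus included both risen and fallen genes in S487D.

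**Figure D5:**
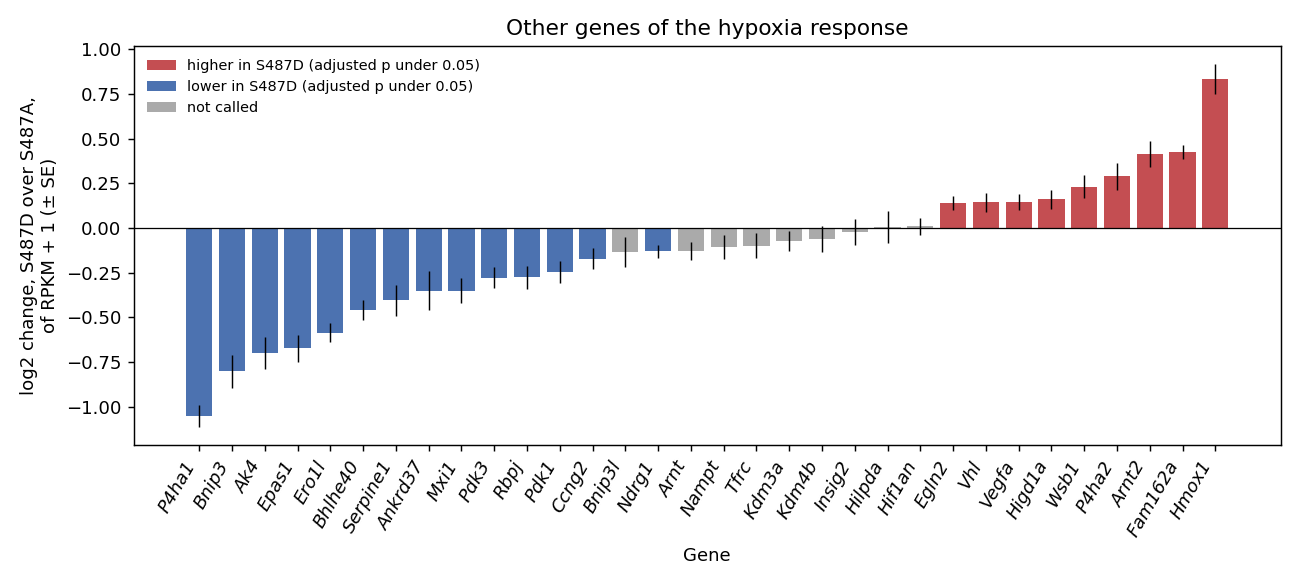
Log2 change of RPKM + 1, S487D over S487A, with SE, for the 32 tested genes among the other hypoxia response genes, ordered by change. Bars run from P4ha1 at -1.05 to Hmox1 at 0.83, with 14 genes lower, 9 higher and 9 not called.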

How the data were processed

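Trizol-extracted RNA went into a TruSeq RNA library kit, per the labels' protocols. That kit leaves strand unmarked, so overlapping genes can share reads. The submitters' processing notes list bcl2fastq 2.17, cutadapt, TopHat2 2.0.13 and the build rn6 (Rnor_6.0); counter and annotation were not given in the labels or headers. The authors deposited RPKM per gene and library, with position and gene length, per the file headers. RPKM times length fell on whole reads (within 0.05 of a read for at least 99.95% of values), which gave reads per gene and library totals.

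The test was limma 3.58.1 in R 4.3.3, on log2(RPKM + 1) with an intensity trend and the group as only term, for genes that reached RPKM 1 in 3 or more libraries; p-values were adjusted by Benjamini-Hochberg across those genes. The code was tested on simulated reads. That simulation held far fewer changed genes than were called here, so it does not bear on how calls depend on scaling. Neighbours are the 20 tested genes on each side by start. Named genes followed a rule: all 32 genes, up to 3 risen and 3 fallen genes of smallest p from each other list, and Slc2a2, Bnip3, Vegfa, Pdk1 and Men1 in any case. Some genes that this rule names are not reported here. The genes, lists and tests were chosen with earlier results of these data known. Replicate numbers of the titles did not pair the libraries. Alternatives were pseudocounts of 0.1 and 0.01, a minimum of RPKM 5 or none, quantile normalization, no trend, median centring, a replicate block, voom on recovered reads and each library left out. Python 3.11.15 made tables and figures.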

Additional observations from a re-analysis of the deposited data

How the results depend on the processing

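Aldoa, Pgk1, Egln1, Taldo1, Pfkm, Pfkfb3 and Hif1a kept direction and call in all 15 alternatives. Egln3 did so in the 11 that tested it. Where a filter on low values applied, it entered through its S487D libraries alone, so this is no support for a rise. The calls of Pfkfb2, Gapdh, Pgam1, Eno1, Pkm and Ldhb were each lost in at least 1 alternative, and the cause was not tested. The median log2 change of the tested genes of the set, 0.10, was 0.0509 after quantile normalization and 0.157 after median centring, where the median of all genes tested was 0.03 and 0.04. Leaving out single libraries gave medians from 0.0383 to 0.118, with 3 to 9 genes rising and 4 to 6 falling. Signs turned for 3 genes that missed the threshold: Aldoc after quantile normalization (log2 change 0.0509), Ddit4 after quantile normalization (0.0131) and median centring (0.0088), with -0.107 to 0.0058 when single libraries were left out, and Tkt after median centring (0.0566; it passed at -0.0853 after quantile normalization), with -0.0245 to 0.0205 when single libraries were left out. With the replicate block, 5335 genes were called, and 7 of the set rose and 5 fell; the numbers are not taken to pair the libraries, since deviations of same-numbered libraries correlated at 0.0035, -0.0599 and 0.00998. With voom, 11 rose and 6 fell. Hk1, Hk2, Ldha, Tpi1, Eno2 and Adm had no more than 3 reads in any library, so no difference could be read for them.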

Other observations

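A second run of rows without reads, chosen after its values were seen, holds a gene of the hypoxia list. Mif, a cytokine gene that HIF can induce, was listed at 0 in every library. On chromosome 20 from 13248727 to 13743666 (rn6), 15 consecutive rows held 1 read in all 6 libraries together. They include Smarcb1, a subunit of the SWI/SNF chromatin remodeller, and Chchd10 and Derl3, which act in mitochondria and in the endoplasmic reticulum. Whether these zeros reflect absent mRNA or reads that the counting dropped was not tested.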
